A study of Homo sapiens with 6 samples.

Results

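The 50 genes described here encode the digestive enzymes of the lysosome, the proteins of its membrane and the machinery that delivers enzymes to it. They were chosen by gene symbol, with earlier results of these data known, and all 50 were among the 17269 genes of the deposited table. They fall into 19 enzymes of glycan breakdown, 10 peptidases, 6 lipid enzymes and activator proteins, 9 membrane proteins and 6 sorting genes. RNA was sequenced from HCT116, an established human colorectal carcinoma line, with 3 libraries labelled shCtrl (genotype WT in the labels) and 3 labelled shPRSS22 (PRSS22 knockdown). PRSS22 encodes a secreted trypsin-like serine protease. Both groups were grown in RPMI1640 with fetal bovine serum and antibiotics, with no further treatment in the labels. Which hairpin was used, how it was delivered, and whether each line is a clone or a pool are not given in the sources used here.

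Lysosomal hydrolases are made in the endoplasmic reticulum and tagged in the Golgi with mannose 6-phosphate. Receptors for this tag carry them to endosomes, where acid releases them. In the lysosome, glycosidases and sulfatases take sugar chains apart step by step, cathepsins cut proteins, and lipid enzymes work with activator proteins that lift lipids from membranes. Many of these genes carry a promoter element with an E-box core, bound by the transcription factors TFEB, TFE3 and MITF, so that enzyme and membrane genes can be induced together. Inherited loss of single members causes lysosomal storage disease.

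Promoter letters come first, since this element is what many lysosomal genes are known to share. RefSeq promoter windows (GRCh38.p14; 300 bases, from 250 before to 50 after the start site) matched 38 of the 50 genes. The E-box core CACGTG and the longer palindrome TCACGTGA, which contains it, were searched; both read the same on either strand. The longer form was in at least 1 window of 7 of 38 members, 18.4%, against 1.18% of the 27305 genes with a window. The core, within the longer form or not, was in 12 of 38 members, 31.6%, against 8.77% of all. The 27305 genes were not limited to those of the deposited table or to those tested here, so the members and this background are unlike sets. For these 7 genes the stretch around the matches is printed 5′ to 3′ on the gene's strand, with TCACGTGA in capitals.
GAA: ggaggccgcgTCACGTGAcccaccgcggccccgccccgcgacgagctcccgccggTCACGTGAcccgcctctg
CTSA: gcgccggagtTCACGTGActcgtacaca
LAMP1: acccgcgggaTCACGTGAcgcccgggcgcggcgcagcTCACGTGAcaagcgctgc
GNPTG: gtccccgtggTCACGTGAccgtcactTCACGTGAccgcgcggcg
CLN3: gcgggtgctgTCACGTGAtccgacaaac
MCOLN1: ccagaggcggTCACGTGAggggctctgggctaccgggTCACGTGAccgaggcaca
IGF2R: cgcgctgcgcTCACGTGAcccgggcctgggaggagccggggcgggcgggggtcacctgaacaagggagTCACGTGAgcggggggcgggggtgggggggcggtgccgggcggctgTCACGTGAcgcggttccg
These stretches lie at chr17:80101494-80101566 (plus strand) for GAA, chr20:45891299-45891326 (plus) for CTSA and chr13:113297200-113297254 (plus) for LAMP1. They lie at chr16:1351908-1351951 (plus) for GNPTG, chr16:28492059-28492086 (minus) for CLN3, chr19:7522572-7522626 (plus) for MCOLN1 and chr6:159968939-159969070 (plus) for IGF2R. IGF2R held 3 matches, GAA, LAMP1, GNPTG and MCOLN1 held 2 each, and CTSA and CLN3 held 1. The 7 genes did not share a direction: GAA, CTSA, LAMP1 and GNPTG were called lower in shPRSS22, CLN3 higher, and MCOLN1 and IGF2R were not called. The calls of GAA, CTSA and LAMP1 held in all other settings tried, while those of GNPTG and CLN3 ended in several, given below. ARSG and PRCP, the most reduced members, held neither form in their windows. A match is a description of letters and says nothing about binding. PSAP, SGSH, CTSB, LAMP2, NAGLU, LAPTM4B, CTSS, ASAH1, HGSNAT, MANBA, HEXA and ARSA had no entry in the table.

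PRSS22 itself was lower in every knockdown library, at 10.1, 9.38 and 10.1 CPM in the controls against 3.09, 3.16 and 2.61 CPM after knockdown (log2 fold change -1.74, SE 0.135, adjusted p = 4.78e-12). Values in such lists follow the replicate numbers 1 to 3 of shCtrl and then of shPRSS22, and a single library is written as shCtrl-1 and so on. CPM is the count per 1000000 counts of a library after TMM scaling, and called means an adjusted p under 0.05 over all tested genes in edgeR's quasi-likelihood test. Library totals ran from 14920523 to 15466647 estimated counts. Of 8 epithelial markers, EPCAM, KRT8, KRT18, KRT19 and CDH1 stood at 101 to 1947 TPM, CDX2 at 4.62 to 5.73 TPM, and the intestinal genes VIL1 and CDH17 at 0 to 0.39 TPM. The summed epithelial level was 5085 to 5325 TPM in shCtrl and 5002 to 5204 TPM in shPRSS22. The 11 markers of immune, endothelial and fibroblast cells in the table summed to 1.11 to 1.48 TPM in shCtrl and 1.55 to 2.59 TPM in shPRSS22, without overlap; 8 of the 11 had under 10 counts in every library, and the part of such cells in any result was not tested. In RNA from whole cultures, fewer cells with a transcript and less transcript per cell cannot be told apart.

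Most lysosomal enzyme genes fell after PRSS22 knockdown, while few genes of the list rose. Of the 50 members, 48 passed the filter on low counts and were tested; 25 were called lower and 4 higher, and 19 were not called. Called genes thus made up 60.4% of tested members, against 39.1% of all 13104 genes tested. By direction, 52.1% of the members were lower, against 19.3% of all genes, and 8.33% were higher, against 19.9%. The list was chosen with earlier results of these data known, so these shares are a description and not a test. The tested members also had a median level of 79.6 CPM and a median SE of 0.042. Over all genes tested these medians were 30.6 CPM and 0.063. A smaller SE makes a call easier at the same fold change, and the shares here are not matched for level or SE. The shCtrl and shPRSS22 libraries did not overlap for 31 members: 27 lay lower in shPRSS22 (24.3% of all genes do) and 4 higher (24.2%), in all 64.6% against 48.6%. The changes were small: 13 of the 48 tested members were called and moved by at least 1.2-fold, as did 2389 of all 13104 genes (18.2%). The 13 were 11 glycan enzymes and 2 peptidases. Sign aside, the median log2 fold change was 0.19 in the tested members and 0.14 in all genes. DESeq2 called 22 members lower and 0 higher (3 higher at an unadjusted p under 0.05), and edgeR called 2 higher when shCtrl-1, shCtrl-3 or shPRSS22-2 was left out. The median log2 fold change was -0.14 over the tested members and -0.0056 over all genes.

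The counts varied by class. Over all genes tested, 19.3% were lower and 19.9% higher. Lower calls made up 66.7% of tested glycan, peptidase and sorting genes, 33.3% of lipid genes and 11.1% of membrane genes. Higher calls made up 11.1% of glycan and 22.2% of membrane genes. Glycan enzymes were lower in 12 of 18 tested members and higher in 2, with a median log2 fold change of -0.31. Peptidases were lower in 6 of 9 and higher in 0, with a median of -0.21. Lipid enzymes and activators were lower in 2 of 6 and higher in 0, with a median of -0.073. Membrane proteins were lower in 1 of 9 and higher in 2, with a median of 0.017, and sorting genes lower in 4 of 6 and higher in 0, with a median of -0.16. The counts of 0 come from edgeR; 0 peptidases, 0 lipid genes and 0 sorting genes were higher also at an unadjusted p under 0.05 in edgeR and in DESeq2. All members of the glycan, peptidase and lipid classes together were lower in 20 of 33 and higher in 2, whereas the membrane and sorting genes together were lower in 5 of 15 and higher in 2. Whether the classes differ was not tested. Single libraries moved the small counts: 1 glycan gene was higher without shCtrl-3 or shPRSS22-2, 1 peptidase was higher without shPRSS22-2, and 0 membrane genes were higher without shCtrl-1 or shPRSS22-2 and 1 without any other library. Likewise 1 lipid gene was lower without shCtrl-3 or shPRSS22-1 and 3 without shCtrl-1, and 2 membrane genes were lower without shPRSS22-2.

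**Figure D1:**
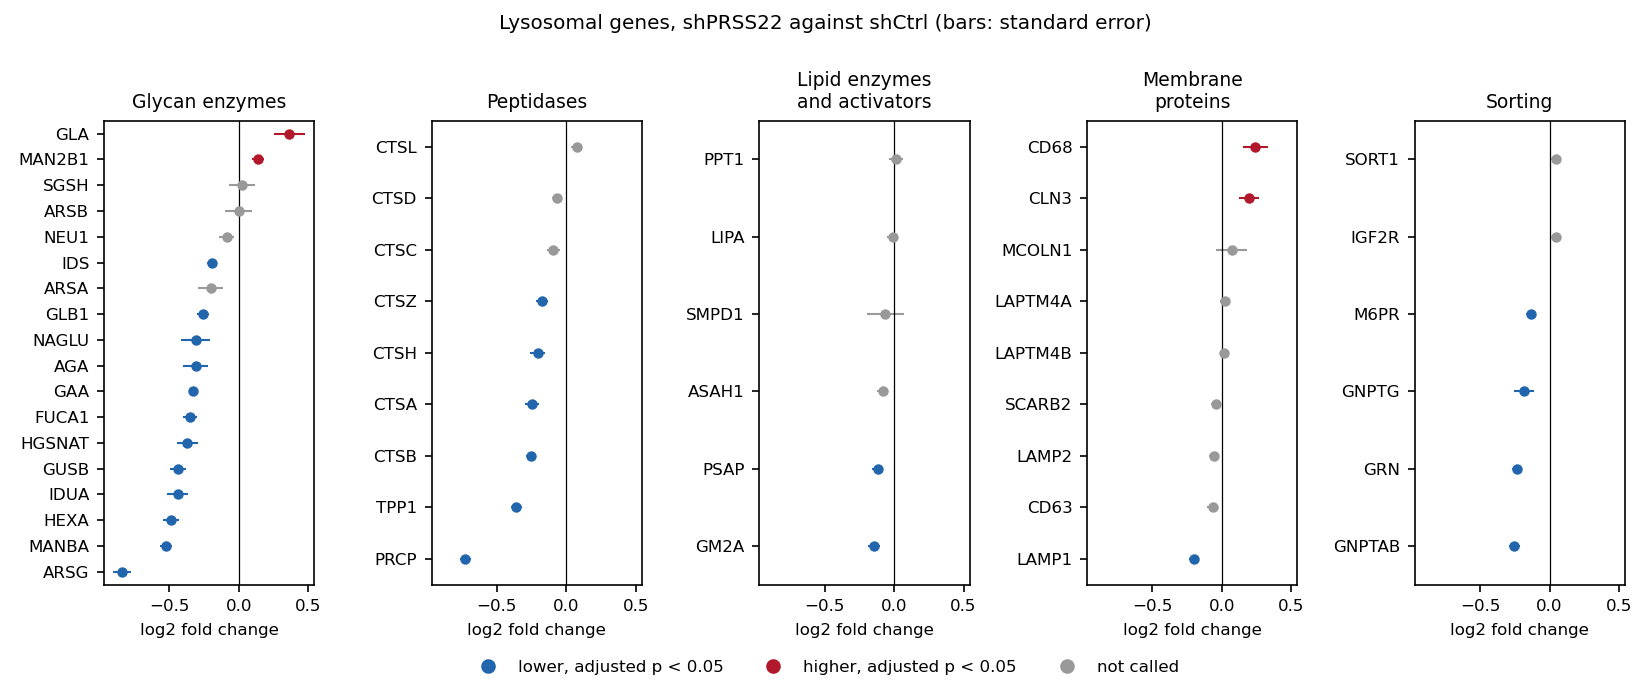
Log2 fold change of each tested member, shPRSS22 against shCtrl, in 5 panels by class; points are estimates, bars are standard errors, and colour marks the call at an adjusted p of 0.05. Glycan enzymes run from -0.84 (ARSG) to 0.36 (GLA), while membrane proteins lie between -0.20 (LAMP1) and 0.24 (CD68).

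The deposited TPM, a level per transcript length that sums to 1000000 in each library, allows genes to be added up. The 19 glycan enzymes together went from 611 ± 6.73 to 510.4 ± 5.23 TPM (SD, n = 3). Peptidases went from 1109.6 ± 8.95 to 967 ± 15.7 TPM, and the sorting genes from 484 ± 3.64 to 433 ± 7.05 TPM. In these 3 classes the lowest shCtrl library lay above the highest shPRSS22 library. Within the sorting sum, GRN alone went from 211.9 ± 1.66 to 181 ± 0.983 TPM. Lipid genes summed to 1626 ± 36.3 TPM against 1519 ± 65.9 TPM, a sum dominated by PSAP, and there too the libraries did not overlap, by a narrow margin (lowest shCtrl 1602 TPM, highest shPRSS22 1591 TPM). Membrane proteins summed to 1311 ± 12.4 TPM against 1288 ± 31.4 TPM, with overlapping libraries. All 50 genes together took 5142 ± 61.4 TPM in shCtrl and 4717 ± 116 TPM in shPRSS22.

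**Figure D2:**
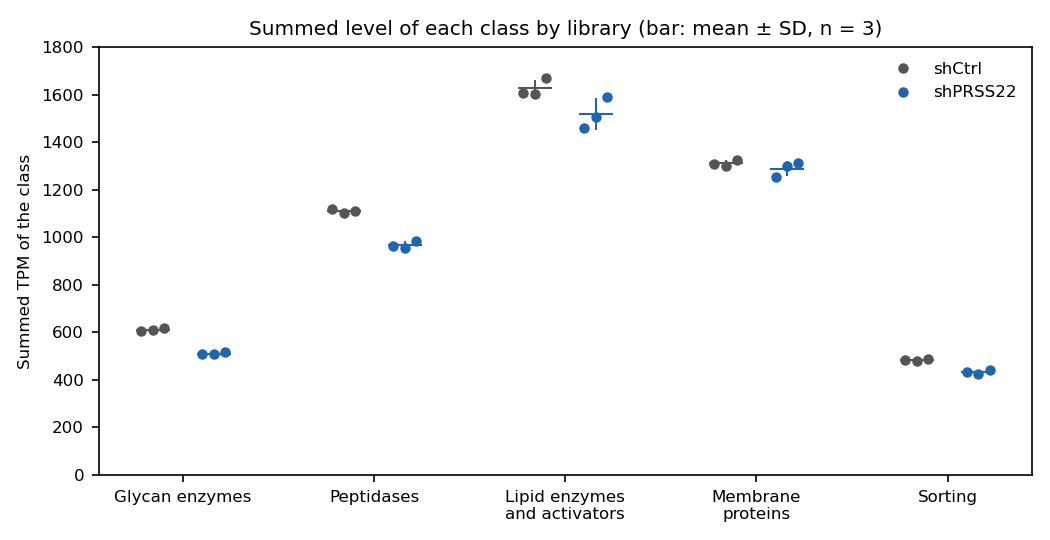
Summed deposited TPM of the members of each class (vertical axis, from 0) in each of the 6 libraries; points are libraries, horizontal bars are means and vertical bars SD (n = 3 per group). The glycan enzymes sit at 606 to 618 TPM in shCtrl and 507 to 516 TPM in shPRSS22, while the membrane proteins overlap.

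ARSG, a sulfatase of heparan sulfate, had the largest log2 fold change of the members. The libraries gave 36.3, 34.9 and 34.7 CPM in the controls against 20.3, 18.9 and 20.0 CPM after knockdown, without overlap (log2 fold change -0.84, SE 0.0637, adjusted p = 2.81e-12). The gene lies on chromosome 17 from 68259182 to 68422731 (GRCh38, plus strand). Its counts carried decimals, and 11.4% of its exon bases overlap exons of WIPI1 on the other strand, which rose (log2 fold change 0.29, mean 88.0 CPM). SLC16A6, a transporter gene inside the ARSG span on the minus strand, shares no exon base with it and had a log2 fold change of -1.36 (mean 9.62 CPM). No strand marking is described for these libraries, and the part of either neighbour in the ARSG value was not tested.

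MANBA, beta-mannosidase, removes the core mannose late in the breakdown of N-linked glycans (chromosome 4 from 102630770 to 102760994). It stood at 95.9, 97.3 and 98.5 CPM in the controls against 65.2, 70.0 and 67.7 CPM after knockdown (log2 fold change -0.52, SE 0.0423, adjusted p = 1.12e-11), and every knockdown library was below every control. HEXA, the alpha subunit of beta-hexosaminidase A, stood at 40.1, 40.0 and 40.0 CPM in the controls against 29.6, 29.0 and 27.0 CPM after knockdown (log2 fold change -0.49, SE 0.0581, adjusted p = 4.09e-08); its control libraries were nearly identical. IDUA, alpha-L-iduronidase, stood at 21.4, 23.7 and 23.7 CPM in the controls against 16.2, 17.0 and 17.6 CPM after knockdown (log2 fold change -0.44, SE 0.0747, adjusted p = 1.87e-05). Of its exon bases, 5.60% overlap SLC26A1 on the other strand, a gene at a mean of only 1.15 CPM that also fell. GAA, the acid glucosidase that degrades glycogen, had the highest level per length in the class, 120.4 TPM on average. Its libraries gave 272, 278 and 267 CPM in the controls against 216, 221 and 214 CPM after knockdown (log2 fold change -0.33, SE 0.0329, adjusted p = 1.41e-09). GLB1, beta-galactosidase, was second by that measure (78.5 TPM). It stood at 115, 118 and 123 CPM in the controls against 95.7, 96.9 and 105 CPM after knockdown (log2 fold change -0.26, SE 0.0413, adjusted p = 7.51e-06). These 5 genes moved by different amounts, but none had a knockdown library within the control range. MANBA, HEXA and IDUA were named for large called falls, and GAA and GLB1 for level. Of all genes, 24.3% lay lower without overlap.

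Among the other glycan enzymes that fell, GUSB, beta-glucuronidase, had a log2 fold change of -0.44, adjusted p = 3.06e-07, and FUCA1, the alpha-fucosidase, one of -0.35, adjusted p = 1.48e-06. AGA, which splits the sugar from asparagine, changed by -0.31, adjusted p = 0.00635. The AGA call ended in some settings (adjusted p 0.0777 leaving out shCtrl-3 and 0.0531 in DESeq2). GLA, alpha-galactosidase A, went against the class, with 8.15, 9.11 and 7.53 CPM in the controls against 9.27, 11.4 and 11.2 CPM after knockdown (log2 fold change 0.36, SE 0.112, adjusted p = 0.00959). The knockdown libraries were all higher, but some settings ended the call (adjusted p 0.0559 leaving out shCtrl-3, 0.0519 leaving out shPRSS22-2 and 0.0709 in DESeq2). MAN2B1, the lysosomal alpha-mannosidase, was also called higher, at 74.2, 72.8 and 72.6 CPM in the controls against 81.5, 78.4 and 81.6 CPM after knockdown (log2 fold change 0.14, SE 0.0423, adjusted p = 0.00975). Its libraries did not overlap, but DESeq2 gave an adjusted p of 0.0559. The mannosidases MANBA and MAN2B1, which act on the same glycans, thus were called in opposite directions. ARSA, arylsulfatase A, which acts on sulfatide, did not overlap between groups but was not called (-0.20, adjusted p = 0.0781). It was called without shPRSS22-1 (log2 fold change -0.28, adjusted p = 0.0274). ARSB, the dermatan sulfate sulfatase, had a log2 fold change of 0.00079 with a 95% interval of -0.19 to 0.19, and NEU1, the sialidase, one of -0.088 (-0.20 to 0.024). GALC, galactosylceramidase, had 0 counts in 4 libraries and 1 count in each of shPRSS22 replicates 2 and 3, too few to pass the filter or give a ratio.

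Heparan sulfate breakdown runs through 7 of these genes, a group picked by textbook role after the values were known. In it 6 of 7 were called lower, against 19.3% of all genes. The chain is degraded in turn by IDS and IDUA, which remove sulfate and iduronic acid, by SGSH, HGSNAT and NAGLU, which remove sulfate from, acetylate and cut off glucosamine, and by ARSG and GUSB. IDS, iduronate sulfatase, the most abundant of them by count, stood at 256, 261 and 249.9 CPM in the controls against 220.3, 235 and 214 CPM after knockdown (log2 fold change -0.20, SE 0.0356, adjusted p = 4.94e-05). HGSNAT, the membrane acetyltransferase, stood at 21.5, 24.4 and 24.5 CPM in the controls against 17.3, 19.4 and 17.8 CPM after knockdown (log2 fold change -0.37, SE 0.0752, adjusted p = 1.98e-04). HGSNAT and IDS were lower in all knockdown libraries. NAGLU stood at 11.9, 10.2 and 11.4 CPM in the controls against 8.49, 9.53 and 9.01 CPM after knockdown (log2 fold change -0.31, SE 0.103, adjusted p = 0.0174). Its knockdown libraries were lower too, but the NAGLU call ended in some settings (adjusted p 0.0912 leaving out shCtrl-1, 0.0568 leaving out shCtrl-3, 0.0703 leaving out shPRSS22-1 and 0.115 in DESeq2). SGSH, the sulfamidase between these steps, stood at 13.8, 12.3 and 11.8 CPM in the controls against 12.7, 13.5 and 12.3 CPM after knockdown and overlapped between groups (log2 fold change 0.021, 95% interval -0.16 to 0.20).

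**Figure D3:**
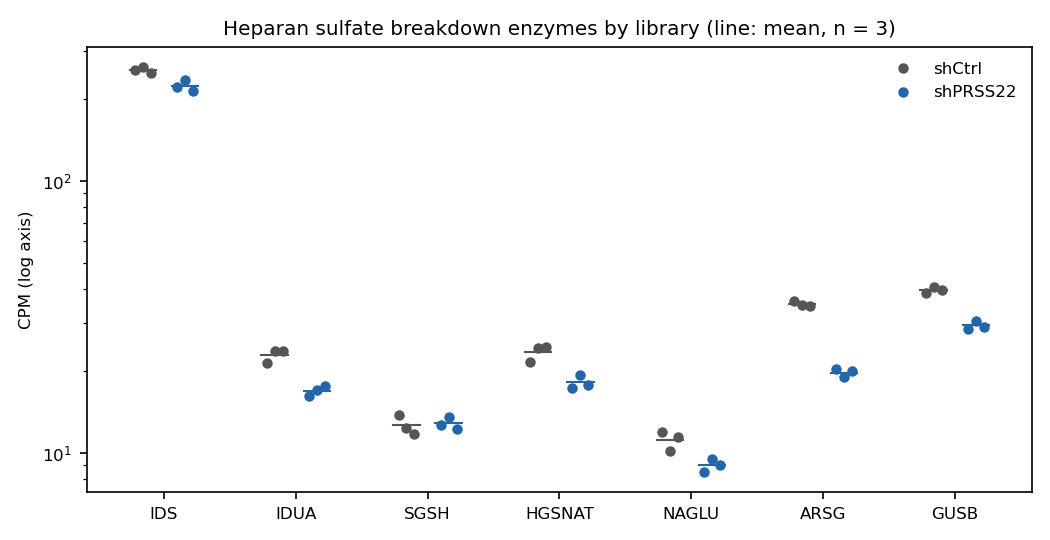
CPM (log axis) of the 7 heparan sulfate enzymes in each of the 6 libraries; points are libraries and lines are group means (n = 3). IDS, IDUA, HGSNAT, NAGLU, ARSG and GUSB lie lower in every shPRSS22 library than in any shCtrl library, and SGSH overlaps.

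Among the peptidases PRCP moved furthest. PRCP, prolylcarboxypeptidase, removes residues that follow a proline from the end of peptides (chromosome 11 from 82823502 to 82970584). It stood at 136, 137 and 137 CPM in the controls against 78.4, 84.8 and 83.7 CPM after knockdown (log2 fold change -0.73, SE 0.0394, adjusted p = 7.57e-16). This was the smallest adjusted p among the members, with control libraries within a few CPM of each other. TPP1, tripeptidyl peptidase, stood at 129.9, 130.0 and 119 CPM in the controls against 97.7, 98.6 and 99.0 CPM after knockdown (log2 fold change -0.36, SE 0.0398, adjusted p = 9.12e-09), also without overlap. CTSB, cathepsin B, a cysteine protease, had the highest level per length of the class (323 TPM). Its libraries gave 779.9, 757 and 746 CPM in the controls against 621, 666 and 629 CPM after knockdown (log2 fold change -0.25, SE 0.0349, adjusted p = 5.92e-07), all knockdown libraries being lower. CTSA, a carboxypeptidase that also protects GLB1 and NEU1 in a complex, stood at 62.7, 59.5 and 60.0 CPM in the controls against 51.2, 52.1 and 50.2 CPM after knockdown (log2 fold change -0.25, SE 0.0478, adjusted p = 1.10e-04). Of its exon bases, 10.4% overlap NEURL2 and 8.55% PLTP on the other strand; NEURL2 had too few counts to be tested and PLTP had a log2 fold change of 0.0068. Every CTSA knockdown library was below the controls. Of the complex, GLB1 and CTSA thus were called lower, and NEU1 was not called.

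The cysteine proteases CTSH and CTSZ fell by less (-0.21, adjusted p = 0.00363, and -0.18, adjusted p = 0.00131). CTSD, the main aspartic protease of the lysosome, was the peptidase second in level per length (159.6 TPM). It stood at 177, 175 and 183 CPM in the controls against 165, 168 and 177 CPM after knockdown and overlapped between groups (log2 fold change -0.066, 95% interval -0.14 to 0.0041). CTSC, dipeptidyl peptidase, did not overlap but was not called (-0.093, adjusted p = 0.101). CTSL, cathepsin L, was the only tested peptidase with a positive estimate and was not called (0.074, adjusted p = 0.133). Leaving out 1 library brought a call for CTSD (without shPRSS22-3, adjusted p = 0.0397) and, as a rise, for CTSL (without shPRSS22-2, adjusted p = 0.0394). CTSS, the cathepsin of antigen-presenting cells, had 8, 5 and 9 counts in shCtrl and 9, 17 and 13 in shPRSS22 and did not pass the filter on low counts.

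In the lipid class the 2 genes called were both activator proteins, and both were lower. The class of 6 thus had 33.3% of its genes called, near the 39.1% of all genes. Lower calls made up 33.3%, against 19.3% of all genes. PSAP, the precursor of the saposins that present sphingolipids to their enzymes, was the most abundant member per length (1310.2 TPM). It stood at 2065, 2070.0 and 2124 CPM in the controls against 1804, 1964 and 1997 CPM after knockdown (log2 fold change -0.12, SE 0.0382, adjusted p = 0.0135). The knockdown libraries were all lower, but single libraries ended the call (adjusted p 0.0797 leaving out shCtrl-3 and 0.164 leaving out shPRSS22-1). GM2A, the activator for ganglioside breakdown by HEXA, stood at 96.7, 96.7 and 102 CPM in the controls against 88.2, 87.0 and 91.4 CPM after knockdown (log2 fold change -0.15, SE 0.0406, adjusted p = 0.00467). GM2A did not overlap between groups. LIPA, the acid lipase of cholesteryl esters, was second in level per length (90.1 TPM). It stood at 127, 124 and 120.2 CPM in the controls against 121, 119 and 129 CPM after knockdown, with mixed libraries (log2 fold change -0.010, 95% interval -0.086 to 0.066). PPT1, a thioesterase that removes fatty acids from proteins, had a log2 fold change of 0.011 (-0.085 to 0.11). CAP1 exons overlap 27.3% of the exon bases of PPT1 on the other strand, at a mean of 379.9 CPM for CAP1. ASAH1, acid ceramidase, had a log2 fold change of -0.083 (-0.16 to -0.0035) and was called lower without shCtrl-1 (adjusted p = 0.0330). SMPD1, acid sphingomyelinase, had one of -0.063 with a wide interval (-0.33 to 0.20) at a mean of 6.68 CPM.

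**Figure D4:**
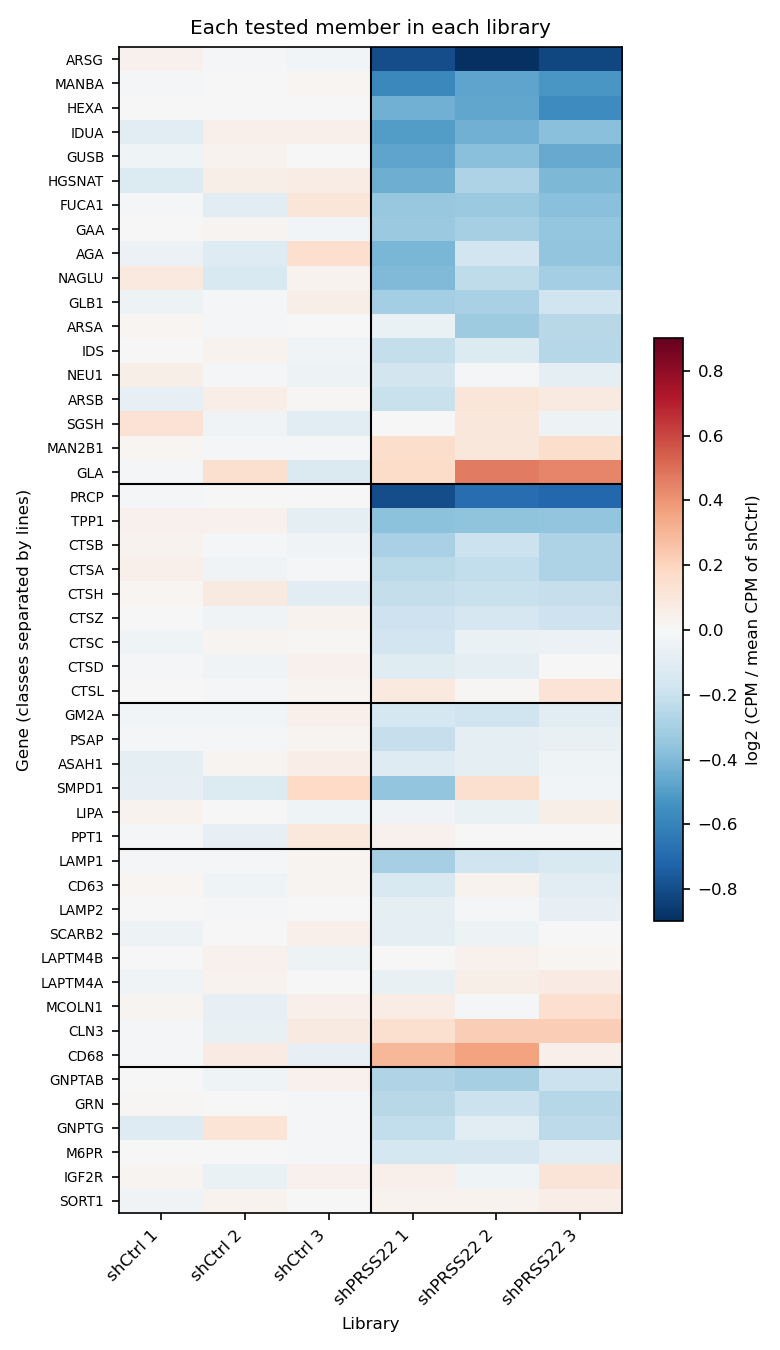
Level of each tested member (rows, by class) in each library (columns), as log2 of its CPM over its mean CPM in shCtrl; blue is lower and red higher. Most glycan and peptidase rows are blue in all 3 shPRSS22 columns, whereas most membrane rows stay near 0.

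Of the membrane proteins LAMP1 fell, CLN3 and CD68 were called higher, and 6 of 9 were not called. The class thus had 33.3% of its genes called and 22.2% higher, near the 39.1% and 19.9% of all genes. LAMP1, the most used marker of the lysosomal membrane, stood at 211, 209.5 and 216 CPM in the controls against 173, 188 and 193 CPM after knockdown (log2 fold change -0.20, SE 0.0369, adjusted p = 5.02e-05). All its knockdown libraries were lower. LAMP2, its relative, did not overlap between groups but was not called (-0.055, adjusted p = 0.238). CD63, a tetraspanin, was the most abundant membrane gene per length (421 TPM). It stood at 195, 188 and 197 CPM in the controls against 175, 197 and 181 CPM after knockdown, with overlap (-0.067, adjusted p = 0.173). It was called lower without shPRSS22-2 (log2 fold change -0.11, adjusted p = 0.0159). LAPTM4A, a small protein of late endosomes, was second per length (324 TPM). It stood at 207, 217 and 212 CPM in the controls against 202, 220.3 and 224 CPM after knockdown (log2 fold change 0.023, 95% interval -0.049 to 0.095). LAPTM4B had a log2 fold change of 0.017 (-0.048 to 0.082), and SCARB2, which carries glucocerebrosidase to the lysosome, one of -0.043 (-0.11 to 0.025). MCOLN1, a cation channel of the lysosome, had one of 0.070 (-0.15 to 0.29).

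The higher calls among membrane genes ended in several settings, while their estimates stayed positive. Over all settings tried the log2 fold change ran from 0.16 to 0.24 for CLN3 and from 0.18 to 0.33 for CD68. CLN3, a membrane protein lost in juvenile neuronal ceroid lipofuscinosis, stood at 20.7, 20.1 and 22.2 CPM in the controls against 23.2, 24.5 and 24.4 CPM after knockdown (log2 fold change 0.20, SE 0.0694, adjusted p = 0.0249). The libraries did not overlap, but the CLN3 call ended in several settings (adjusted p 0.0764 leaving out shCtrl-1, 0.113 leaving out shCtrl-2, 0.0629 leaving out shPRSS22-2, 0.0618 leaving out shPRSS22-3 and 0.141 in DESeq2). CD68, a heavily glycosylated protein known as a macrophage marker, stood at 14.8, 15.6 and 14.1 CPM in the controls against 18.3, 19.1 and 15.3 CPM after knockdown (log2 fold change 0.24, SE 0.0874, adjusted p = 0.0271). Its libraries overlapped, and several settings ended the call (adjusted p 0.0693 leaving out shCtrl-1, 0.0993 leaving out shCtrl-3, 0.0876 leaving out shPRSS22-1, 0.140 leaving out shPRSS22-2 and 0.134 in DESeq2). The macrophage genes CD14, CSF1R and ITGAM stood at 0 to 0.61 TPM in all libraries, against a mean of 18.6 TPM for CD68, and the part of macrophages in the CD68 value was not tested.

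Sorting genes were lower at the tagging step and in 1 of the receptors. GNPTAB, the catalytic part of the enzyme that starts the mannose 6-phosphate tag, stood at 128, 124 and 132 CPM in the controls against 106, 104 and 112 CPM after knockdown (log2 fold change -0.25, SE 0.0391, adjusted p = 4.33e-06). The GNPTAB groups did not overlap. GNPTG, its gamma subunit, stood at 24.1, 28.5 and 25.8 CPM in the controls against 22.4, 24.3 and 22.3 CPM after knockdown and overlapped (log2 fold change -0.19, SE 0.0708, adjusted p = 0.0359). The GNPTG call ended in several settings (adjusted p 0.254 leaving out shCtrl-2, 0.0662 leaving out shCtrl-3, 0.102 leaving out shPRSS22-1, 0.102 leaving out shPRSS22-3 and 0.168 in DESeq2). Of its exon bases, 41.8% overlap UNKL on the other strand, which was not called. M6PR, the cation-dependent mannose 6-phosphate receptor, stood at 188, 188 and 187 CPM in the controls against 169, 169 and 175 CPM after knockdown (log2 fold change -0.14, SE 0.0338, adjusted p = 0.00162); 40.0% of its exon bases overlap PHC1, also not called. IGF2R, the larger receptor for the same tag, was not called (log2 fold change 0.043, 95% interval -0.030 to 0.12). SORT1, sortilin, which carries PSAP and GRN without the tag, had a log2 fold change of 0.043 (-0.034 to 0.12) without overlap between groups, and was not called (adjusted p = 0.404). GRN, progranulin, a secreted precursor delivered to lysosomes with PSAP, was the sorting-class gene highest per length (196 TPM). It stood at 245, 243 and 241 CPM in the controls against 204, 212 and 203 CPM after knockdown (log2 fold change -0.24, SE 0.0331, adjusted p = 8.75e-07), again without overlap.

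Hydrolases outside the 50 members were lower more often than higher. Their list and the other lists below were also chosen with earlier results of these data known. Of 22 tested, 12 were called lower and 4 higher (54.5% and 18.2%), against 19.3% and 19.9% of all genes, with a median log2 fold change of -0.11. CTSO, a little-studied cathepsin of low level, changed most, at 5.57 ± 0.264 CPM in shCtrl and 3.21 ± 0.293 CPM in shPRSS22 (log2 fold change -0.79, SE 0.153, adjusted p = 1.09e-04). DPP7, a dipeptidyl peptidase related to PRCP, stood at 77.3 ± 2.68 CPM in shCtrl and 55.8 ± 2.46 CPM in shPRSS22 (log2 fold change -0.47, SE 0.0469, adjusted p = 1.14e-09). ARSK, a glucuronate sulfatase, rose (0.32, adjusted p = 0.00237), as did SCPEP1, a carboxypeptidase (0.16, adjusted p = 0.00205). CTSV, a close relative of CTSL, was called higher (0.25, adjusted p = 0.0284) but not in every setting (adjusted p 0.163 leaving out shCtrl-2, 0.134 leaving out shPRSS22-1 and 0.148 in DESeq2). DESeq2, or leaving out shCtrl-2 or shPRSS22-1, left 2 of these hydrolases higher.

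Other membrane proteins and transporters were mostly not called: of 25 tested, 4 were higher (16%) and 2 lower (8%), against 19.9% and 19.3% of all genes. NPC1, which exports cholesterol from the lysosome, stood at 95.2 ± 1.46 CPM in shCtrl and 115 ± 1.58 CPM in shPRSS22 (log2 fold change 0.27, SE 0.0382, adjusted p = 1.08e-06). MFSD8, a membrane transporter, was called higher (0.18, adjusted p = 0.00822) but not in DESeq2 (adjusted p = 0.0632). SLC38A9, an arginine sensor of the lysosome, was called higher too (0.18, adjusted p = 0.0183) but not in every setting (adjusted p 0.131 leaving out shCtrl-1, 0.0549 leaving out shPRSS22-1, 0.0755 leaving out shPRSS22-3 and 0.103 in DESeq2). TPCN2, an endolysosomal cation channel, fell (-0.50, adjusted p = 0.00345), and GLMP, a glycosylated membrane protein, was called lower (-0.30, adjusted p = 0.0142), though not in some settings (adjusted p 0.0924 leaving out shCtrl-2, 0.0636 leaving out shPRSS22-1 and 0.101 in DESeq2). This list held 1 lower gene without either of those libraries and in DESeq2, which called 2 higher, and 3 lower genes without shPRSS22-3.

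In the sorting machinery 7 of 28 tested genes were lower and 7 higher, 25% each way, near the 19.3% and 19.9% of all genes. SUMF1, which creates the catalytic residue of every sulfatase, stood at 35.7 ± 0.470 CPM in shCtrl and 26.2 ± 1.81 CPM in shPRSS22 (log2 fold change -0.44, SE 0.0619, adjusted p = 7.79e-07). Its paralog SUMF2 stood at 166 ± 1.87 CPM in shCtrl and 125 ± 4.40 CPM in shPRSS22 (log2 fold change -0.41, SE 0.0362, adjusted p = 9.82e-11). CLN6, which helps lysosomal enzymes leave the endoplasmic reticulum, fell as well (-0.47, adjusted p = 3.18e-05). All 3 of these proteins act in the endoplasmic reticulum. The largest higher calls were adaptor subunits, which form coats at the Golgi and endosomes: AP3S1 (0.24, adjusted p = 1.07e-06), AP1M1 (0.20, adjusted p = 0.0139) and AP3M1 (0.15, adjusted p = 0.00479). AP1M1 was not called in some settings (adjusted p 0.0768 leaving out shCtrl-1, 0.0672 leaving out shCtrl-2, 0.129 leaving out shPRSS22-1 and 0.0827 in DESeq2). DESeq2 called 3 genes of this list higher, and edgeR 4 when shCtrl-1, shCtrl-2, shPRSS22-1 or shPRSS22-3 was left out.

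Of the factors that bind the promoter element, MITF rose and TFEB and TFE3 were not called. MITF stood at 11.3, 11.2 and 10.6 CPM in the controls against 15.8, 15.3 and 17.4 CPM after knockdown (log2 fold change 0.55, SE 0.0894, adjusted p = 9.60e-06), higher in every knockdown library. TFEB was at 4.24 CPM on average (log2 fold change 0.32, SE 0.156, adjusted p = 0.107). Its shPRSS22 libraries all lay above its shCtrl libraries, as for 24.2% of all genes, but TFEB was not called. TFE3, the most abundant of them per length (22.6 TPM), had a log2 fold change of 0.031 (-0.080 to 0.14). In the list of transcription and nutrient control, 6 of 17 tested genes were lower (35.3%, against 19.3% of all genes) and 3 higher (17.6%, near the 19.9% of all genes). The Rag GTPase genes, which signal amino acids to mTORC1 at the lysosome, were lower in 3 of 4 and higher in 1. RRAGC rose (0.36, adjusted p = 2.12e-05) and RRAGB fell (-0.45, adjusted p = 3.72e-04). RRAGD was called lower (-0.15, adjusted p = 0.00752), though not in some settings (adjusted p 0.0623 leaving out shCtrl-2 and 0.0515 in DESeq2), and RRAGA was called lower (-0.14, adjusted p = 0.0345) but not in several settings (adjusted p 0.0876 leaving out shCtrl-2, 0.147 leaving out shCtrl-3, 0.163 leaving out shPRSS22-3 and 0.151 in DESeq2). LAMTOR1, the anchor of the Ragulator complex, fell (-0.26, adjusted p = 7.33e-04), whereas LAMTOR3 was called higher (0.13, adjusted p = 0.0420). LAMTOR3 was not called in several settings (adjusted p 0.118 leaving out shCtrl-1, 0.105 leaving out shCtrl-2, 0.0944 leaving out shPRSS22-1, 0.133 leaving out shPRSS22-3 and 0.168 in DESeq2). ZKSCAN3, a repressor of lysosomal genes, was called lower (-0.21, adjusted p = 0.0400), a call lost in DESeq2 (adjusted p = 0.192) and without any 1 of the shCtrl libraries, shPRSS22-1 or shPRSS22-3 (adjusted p up to 0.137). This list held 3 lower genes without shCtrl-2 and 2 in DESeq2.

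**Figure D5:**
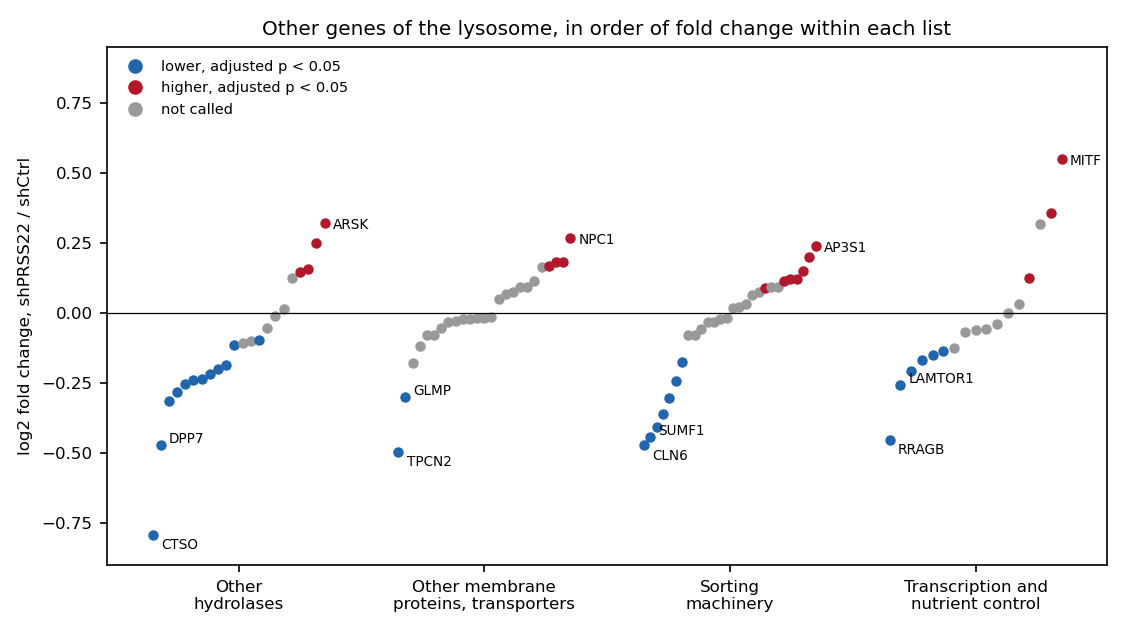
Log2 fold change (vertical axis) of lysosomal genes outside the 50 members, in 4 lists and ordered by value within each; each point is a tested gene, coloured by its call at an adjusted p of 0.05. Other hydrolases lie mostly below 0, with 12 lower and 4 higher, and sorting machinery is divided evenly, with 7 each way.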

How the data were processed

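Messenger RNA was captured on oligo(dT) beads, per the labels' protocols, which describe no strand marking. The submitters' processing notes name, without roles, RSEM 1.3.1 and HISAT2 2.2.1 beside Bowtie2 2.3.4.3, together with R 4.3.1, DESeq2 (given as 1.4.5), FastQC 0.12.1 and the build GRCh38.p13. The authors deposited estimated counts per gene, unscaled per the file headers; 12 of the members carried decimals in at least 1 library. Deposited TPM values were used for levels per length. The deposited log2 fold change, p-value and q-value of the authors' comparison were used once, in the closing section. The 12 other per-library columns and 8 columns of means were not used.

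Counts were rounded and fitted over the whole table with edgeR 4.0.16 (R 4.3.3; TMM, filterByExpr, robust quasi-likelihood F test, two-sided), which tested 13104 genes; p-values were adjusted over these by the Benjamini-Hochberg method. SE is the log2 fold change over the square root of F, and intervals are 95% normal intervals from it. The procedure was also run on simulated counts, with fewer changed genes than were called here and the same spread between libraries for every gene. That setting differs from these data, and no result here rests on it. Nothing in the labels ties replicates to separate cultures, so p-values measure the spread between libraries, which may be technical. The coefficient of variation between libraries beyond counting was 2.97%. Alternatives were DESeq2 1.42.0, other scaling, other filters, a replicate block and leaving out each library.

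Members, classes and lists were chosen with earlier results of these data known. Per class, full values are given for the called members with the 4 largest rises and 4 largest falls and for the 2 highest in TPM, and, chosen after their values were seen, for IDS, HGSNAT, NAGLU and SGSH. From the other lists come the 3 largest rises and falls among called genes at a mean of 1 CPM or more, and TFEB, TFE3 and MITF; 1 gene that this rule names is not reported here. RRAGA and RRAGD were added to it to complete the Rag family. Gene spans and exon overlaps come from GENCODE release 29 (GRCh38), in which antisense transcripts also overlap exons of HEXA, TPP1, CTSD, ASAH1, CD63 and CD68 (each 1.57% to 10.7% of exon bases), and promoter letters from RefSeq (GRCh38.p14).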

Additional observations from a re-analysis of the deposited data

How the results depend on the processing

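Under all 12 alternatives 21 of the 25 lower calls among the members were kept, and none of the 4 higher calls was. DESeq2 ended the higher calls of GLA, MAN2B1, CLN3 and CD68 and the lower calls of NAGLU, AGA and GNPTG. DESeq2 called 22 members lower and 0 higher (3 higher at an unadjusted p under 0.05), with 0 higher glycan and 0 higher membrane genes, and 1637 genes lower over the whole table. The authors' deposited table, at a q-value under 0.05, lists 22 members lower and 0 higher, and all 22 were also called lower here. In the other lists DESeq2 called 2 hydrolases higher, 2 transporters higher and 1 lower, 3 sorting genes higher and 2 control genes lower. No called member changed sign.

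Leaving out 1 library at a time gave 2161 to 2484 genes higher and 2079 to 2271 lower over the whole table. It gave 21 to 26 members lower and 2 to 3 higher. By class, higher calls ran from 1 to 2 (glycan), 0 to 1 (peptidase, the 1 being CTSL) and 0 to 1 (membrane), and lower calls from 1 to 3 (lipid) and 1 to 2 (membrane). In the other lists they ran from 2 to 4 higher hydrolases, 1 to 3 lower transporters, 4 to 8 higher sorting genes and 3 to 6 lower control genes. PRSS22 ran from -1.78 to -1.66 on the log2 scale.

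Chosen after seeing the data, members without decimals gave 1 higher and 0 lower membrane gene and 2 lower sorting genes; members with no exon overlap with an opposite-strand gene of the deposited table gave 1 higher membrane gene and 2 lower sorting genes. These settings test fewer members. Deviations of same-numbered libraries had correlations of 0.0194, 0.0329 and 0.0908. With 3 libraries per group, these values cannot settle whether replicate numbers pair the libraries. With the replicate number as a block 25 members were lower and 4 higher, and 2782 and 2747 genes were higher and lower. Depth limits low transcripts: GALC and CTSS did not pass the filter on low counts.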

Other observations

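The genes named here were chosen after their values were seen. Fusion of endosomes with the lysosome needs the HOPS tether. Its core of VPS11, VPS16, VPS18 and VPS33A is shared with the CORVET tether, while VPS39 and VPS41 belong to HOPS. VPS33A had 35.1, 37.4 and 36.8 CPM in the controls against 28.2, 31.6 and 28.8 CPM after knockdown (log2 fold change -0.30, SE 0.0605, adjusted p = 1.52e-04), and VPS11 had 31.5, 30.1 and 33.8 CPM in the controls against 25.2, 28.0 and 27.4 CPM after knockdown (log2 fold change -0.24, SE 0.0644, adjusted p = 0.00302). Both were lower in every knockdown library. VPS18 was called lower (-0.17, adjusted p = 0.0444), but not in DESeq2 (adjusted p = 0.198) or when any 1 library but shPRSS22-3 was left out (adjusted p 0.0601 to 0.223). VPS16 (log2 fold change -0.077, 95% interval -0.20 to 0.049), VPS39 (-0.058, -0.14 to 0.024) and VPS41 (0.016, -0.071 to 0.10) were not called. The retromer genes VPS35, VPS26A and VPS29, which return receptors from endosomes to the Golgi, had log2 fold changes of 0.031 (-0.040 to 0.10), 0.075 (0.0065 to 0.14) and 0.065 (-0.042 to 0.17) and were not called. VPS26A was called higher without shPRSS22-2 (adjusted p = 0.0372).

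HPSE, heparanase, which cuts heparan sulfate chains before the exo-acting enzymes work, was called higher (0.15, adjusted p = 0.0417). That call ended in DESeq2 (adjusted p = 0.183), with library totals only or no filter on low counts (adjusted p = 0.0501 and 0.0512), and when any 1 library was left out (adjusted p 0.0502 to 0.154).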
